A study of Mus musculus with 2 samples.

Results

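The proteins of the mitochondrial ribosome were described here at the level of their mRNA. Members were taken by symbol alone, as every protein-coding gene of the GENCODE vM21 annotation named Mrpl or Mrps with a number, which gave 78 genes among the 14870 vM21 genes with an assembled locus in at least 1 library. No measured value entered this choice. Wild-type (WT) mouse bone marrow cells were cultured with macrophage colony-stimulating factor (M-CSF) at 20 ng/mL for 2 days, and M-CSF was then continued either alone (M) or together with receptor activator of NF-κB ligand (RANKL) at 100 ng/mL (MR). M-CSF keeps macrophage precursors alive, and RANKL turns them into osteoclasts, the multinucleated cells that resorb bone. RANKL was present for 2 days by the labels but for 3 days by the described bone marrow culture, and the time at which the RNA-seq cultures were harvested is not named. Each condition was sequenced as 1 library, so that no difference between M and MR has a replicate check, and the age and sex of the mice behind these cultures are not given in the sources used here.

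The mitochondrial ribosome, or mitoribosome, translates the few mRNAs that mitochondrial DNA encodes, all of which specify subunits of the respiratory chain and ATP synthase. Its RNA comes from mitochondrial DNA, whereas all of its proteins are encoded in the nucleus, made in the cytosol and imported. Many of these proteins are homologues of bacterial ribosomal proteins, and the rest were added in the mitochondrial lineage. Osteoclasts are known as cells rich in mitochondria.

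M was sequenced to 3.63 Gb of aligned bases and MR to 2.98 Gb, as the listed ratio of coverage to FPKM shows. Osteoclast markers were higher in MR for 10 of 10 genes, with a summed level of 126 TPM in M and 25157 TPM in MR, and Dcstamp, Ocstamp, Calcr, Oscar and Car2 were at 0 in M. Macrophage markers were lower for 6 of 7 genes, at 5480 and 3330 TPM, Csf1r being the exception. Neutrophil granule markers were present in both cultures at 1436 and 978 TPM and were lower in MR for 8 of 9 genes. Erythroid, lymphoid, stromal, and mast cell and basophil lists summed to between 1.11 and 36.2 TPM in either library. These markers moved together with the genes described next, and their part in the differences was not tested. In bulk RNA, fewer cells of a type and less RNA per cell cannot be told apart.

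Levels are given in TPM, the transcript number of a gene per 1000000 transcripts, which corrects for transcript length and is scaled over the assembled loci of a library. A TPM could be read for 73 of the 78 genes, all of which passed the minimum of 1 TPM in at least 1 library, and 72 of the 73 reached 10 TPM in both. Of the 5 others, Mrpl46, Mrpl53, Mrps6 and Mrps18c lay inside the assembled locus of a neighbouring gene in both libraries, and Mrpl12 did so in MR. No member was without an assembled locus over it. The 73 genes comprised 48 of 51 large subunit genes, 24 of 26 small subunit genes and Mrps36. The subunits follow the structure of the mammalian mitoribosome, in which the products of Mrps30 and Mrps18a sit in the large subunit in spite of their names, and the product of Mrps36 belongs to the 2-oxoglutarate dehydrogenase complex.

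Most mitoribosomal mRNAs were more abundant in the culture with RANKL, by a modest and rather even margin. The summed level was 3582 TPM in M and 5665 TPM in MR, a ratio of 1.58, or 0.358% and 0.567% of the library. The median gene was at 40.5 TPM in M and 70.7 TPM in MR. The log2 ratio of a gene is that of its TPM in MR + 1 to its TPM in M + 1, and the added 1 slightly understates it for low genes. The log2 ratio was above 0 for 65 of 73 genes (89.0%), against 59.5% of the 13464 genes that had their own locus, and below 0 for 8. Under median-of-ratios scaling 64 of 73 (87.7%) were above 0, against 51.7% of all genes, with Mrpl40 turned from 0.08 to below 0. The same single gene turned when mitochondrial genes and the 20 most abundant genes were left out of the total.

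The median log2 ratio of the 73 genes was 0.65, against 0.21 over all genes. Median-of-ratios scaling lowered log2 ratios by 0.18 before the added 1. The distance of the members' median from that of all genes was 0.45 in TPM and 0.44 under that scaling. The middle 50% of the members' log2 ratios lay between 0.34 and 0.94, a width of 0.59, whereas over all genes they lay between -0.42 and 0.84, a width of 1.26. Members stood at a higher level than the genes they were set beside, whose median was 12.8 TPM in M and 14.9 TPM in MR, and the part of level in these widths was not tested. Past a log2 ratio of 1, the threshold used here for a call, were 14 of 73 genes (19.2%), against 21.2% of all genes, which is close to the background and no result about the members. Below a log2 ratio of -1 lay 0 of 73, against 13.3% of all genes. Each of the 73 had a locus in both libraries, which was not required of all genes. A gene without a locus in 1 library counts as 0 TPM there, which puts it at or past 1 or -1. Such genes widen the background and raise its share past these thresholds, by an amount that was not computed. In listed coverage per aligned Gb, 18 members lay above 1 and 2 below -1, with 62 above 0 and 11 below 0. The shares of all genes in coverage were not computed. Under median-of-ratios scaling 12 members (16.4%) lay above 1, against 18.2% of all genes. Below -1 lay 1 member under that scaling, where the share of all genes was not computed. At the smaller threshold of 1.5-fold, 41 of 73 (56.2%) were higher, against 33.4% of all genes, and 1 was lower, Mrps17, against 20.5%.

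**Figure D1:**
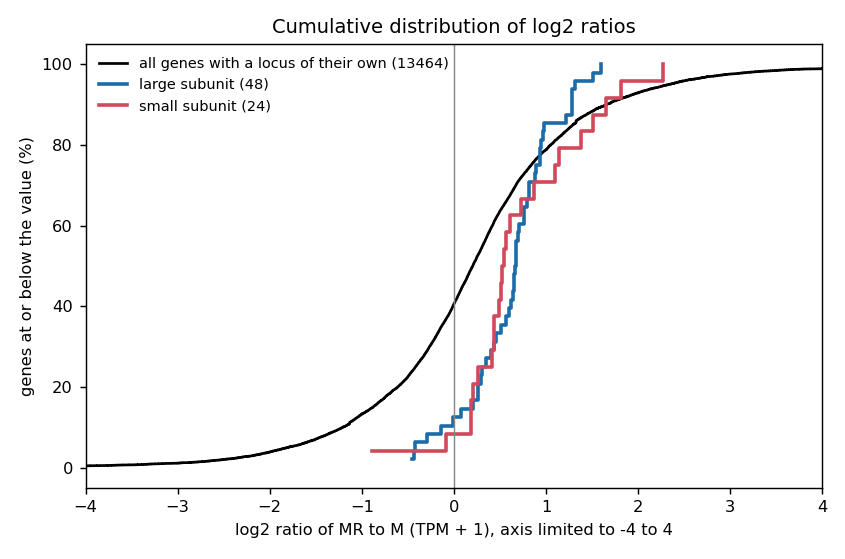
Cumulative share of genes (%) by log2 ratio of MR to M in TPM + 1 for all 13464 genes that had their own locus (black), 48 large subunit genes (blue) and 24 small subunit genes (red). The curves of both subunits rise later and more steeply than that of all genes, with medians of 0.67 for the large subunit and 0.53 for the small subunit against 0.21. At a log2 ratio of 1 the order differs, with 14.6% of large subunit, 29.2% of small subunit and 21.2% of all genes above it. With median-of-ratios scaling, not drawn here, these shares are closer together, at 14.6%, 20.8% and 18.2%.

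The genes kept much of their order between the cultures. Across the 73 genes, Pearson's r of log2 TPM between M and MR was 0.74 and Spearman's rho 0.74, as a description across genes that share both libraries. Levels in M spanned 14.3-fold, from 9.87 TPM for Mrps2 to 141.1 TPM for Mrps21, and those in MR spanned 12.9-fold, from 21.4 TPM for Mrps17 to 275.9 TPM for Mrpl51. The upper quartile of the levels was 1.90 times the lower quartile in M and 1.96 times in MR, so that the genes were about as spread in MR as in M. The large subunit genes summed to 2.70 times the small subunit genes in M and to 2.67 times in MR. Log2 ratios were lower for genes with a higher level in M (Pearson's r = -0.36), whereas against the mean level of the libraries r was -0.00. Because the level in M is part of the ratio, the first of these values is not independent of it.

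Promoters were read for what the genes might share in sequence. RefSeq promoters on GRCm38, 250 bases before and 50 after the start site, matched 69 of the 78 genes. In 46 of the 64 of these genes with a value and a matched promoter, the assembled 5′ end lay within 50 bases of the RefSeq start site in both libraries, and the median distance between the 5′ ends of M and MR was 8 bases. The windows were searched on both strands for the letters of 4 motifs, GCGCA and GCGC with any 1 base between them for NRF1, a factor known for nuclear genes of mitochondria, CCGGAAG of ETS factors, AAGATGGC of YY1 and the E-box CACGTG. These letter strings were chosen with earlier results of these data known, and no other motif was searched.

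The ETS letters stood in 24 of 69 member promoters (34.8%), against 8.86% of all 32851 promoters and 17.1% of the 12553 promoters of genes that had their own assembled locus. Each member counts with 1 promoter, that nearest its assembled 5′ end or, without one, its annotated start. The sets beside it count every RefSeq promoter of a gene, so the shares are not strictly like for like. NRF1 letters stood in 13 of 69 (18.8%), against 4.60% and 9.50%, and those of YY1 in 12 of 69 (17.4%), against 2.75% and 4.39%. The E-box stood in 5 of 69 (7.25%), against 7.15% and 9.71%. At least 1 of the 4 stood in 43 of 69 (62.3%), against 20.2% and 34.1%. The median log2 ratio was 0.59 for the 40 genes with a motif and a value and 0.67 for the 24 with a value and no motif. For NRF1 the medians were 0.67 with and 0.61 without, for ETS 0.57 and 0.65, for YY1 0.55 and 0.65, and for the E-box, with 4 genes that hold it, 0.80 and 0.61. A match is a description of the letters, not of a bound site.

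The promoters of Mrps2, the gene with the second largest log2 ratio, and of Mrps17 and Mrpl27, the genes with the smallest, are printed first because they stand at the ends of the range described below. The promoter of Mrps26, with overlapping NRF1 matches, and that of Mrps12, with ETS and YY1 matches, were chosen after the motif counts were seen, as examples of the shared letters. Each runs 5′ to 3′ along the gene's strand, and capitals mark motif matches. The windows are chr2:28467816-28468115 on the plus strand for Mrps2, chr5:129715247-129715546 on the plus strand for Mrps17, chr11:94653541-94653840 on the plus strand for Mrpl27, chr2:130563507-130563806 on the plus strand for Mrps26 and chr7:28741772-28742071 on the minus strand for Mrps12, all on GRCm38.
Mrps2: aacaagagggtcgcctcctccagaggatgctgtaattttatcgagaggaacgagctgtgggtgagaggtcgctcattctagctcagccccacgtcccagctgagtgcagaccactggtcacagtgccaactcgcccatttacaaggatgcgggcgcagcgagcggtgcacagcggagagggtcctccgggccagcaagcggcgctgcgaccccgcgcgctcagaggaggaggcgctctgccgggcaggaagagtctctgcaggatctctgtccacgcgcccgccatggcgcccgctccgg
Mrps17: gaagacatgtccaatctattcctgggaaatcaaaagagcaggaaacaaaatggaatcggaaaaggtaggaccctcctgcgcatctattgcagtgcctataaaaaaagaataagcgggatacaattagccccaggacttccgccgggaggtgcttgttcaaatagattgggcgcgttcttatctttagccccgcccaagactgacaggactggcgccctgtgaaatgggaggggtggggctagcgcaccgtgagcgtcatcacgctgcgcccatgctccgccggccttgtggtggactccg
Mrpl27: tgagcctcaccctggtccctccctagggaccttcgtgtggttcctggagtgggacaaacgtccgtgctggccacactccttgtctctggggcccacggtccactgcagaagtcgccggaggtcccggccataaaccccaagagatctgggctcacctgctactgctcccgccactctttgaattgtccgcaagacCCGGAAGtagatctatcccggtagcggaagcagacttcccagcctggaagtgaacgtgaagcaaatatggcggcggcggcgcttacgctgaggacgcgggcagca
Mrps26: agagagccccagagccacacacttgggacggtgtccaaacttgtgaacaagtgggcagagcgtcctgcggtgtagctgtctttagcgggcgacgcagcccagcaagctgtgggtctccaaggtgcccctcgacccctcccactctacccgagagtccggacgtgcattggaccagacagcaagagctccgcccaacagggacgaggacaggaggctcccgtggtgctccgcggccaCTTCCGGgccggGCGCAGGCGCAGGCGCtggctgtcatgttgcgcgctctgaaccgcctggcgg
Mrps12: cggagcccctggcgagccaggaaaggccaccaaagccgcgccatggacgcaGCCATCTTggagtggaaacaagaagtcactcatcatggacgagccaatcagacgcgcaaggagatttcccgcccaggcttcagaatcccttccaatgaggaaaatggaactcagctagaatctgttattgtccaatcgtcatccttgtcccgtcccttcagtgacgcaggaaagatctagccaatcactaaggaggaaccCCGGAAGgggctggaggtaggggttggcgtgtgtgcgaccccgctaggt

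Neither the Mrps2 window nor the Mrps17 window, from opposite ends of the range, held any of the 4 motifs. The Mrpl27 window held the ETS letters, with their first base at position -55 from the start site, counted as +1. In Mrps26 the NRF1 letters matched at positions -2 and 5, the matches sharing bases, and the ETS letters matched on the other strand at -14. Mrps12 held the ETS letters at position 2 and those of YY1 on the other strand at -199. The assembled 5′ ends of these 5 genes lay between 11 bases upstream and 21 bases downstream of the RefSeq start site in the libraries.

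Large subunit genes were higher in MR for 42 of 48, with a median log2 ratio of 0.67 and a summed level of 2572 TPM in M and 4044 TPM in MR. Of these genes, 7 (14.6%, against 21.2% of all genes) rose past a log2 ratio of 1, a share under the background, and 0 fell past -1, against 13.3%. The 7 were Mrpl51, Mrpl52, Mrpl36, Mrpl43, Mrpl41, Mrpl38 and Mrpl17. All but Mrpl36 and Mrpl17, homologues of bacterial L36 and L17, encode proteins that bacteria lack.

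Mrpl51 (ENSMUSG00000030335.6, chr6:125191801-125196269) had 90.7 TPM in M and 275.9 TPM in MR, a log2 ratio of 1.59 with a 95% counting interval of 1.44 to 1.75. Mrpl52 (ENSMUSG00000010406.12, chr14:54426909-54429756) had 93.1 TPM in M and 267.0 TPM in MR, a log2 ratio of 1.51 with an interval of 1.23 to 1.80. Both encode proteins specific to the mitochondrial large subunit, and they moved from ranks 7 and 6 of 73 in M to ranks 1 and 2 in MR. The intervals cover counting error within these libraries only, from read pairs estimated with FPKM, the shortest coding transcript and the aligned bases, and they say nothing about spread between cultures.

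Mrpl36 had 30.8 TPM in M and 78.1 TPM in MR, with a log2 ratio of 1.31. Mrpl43 had 36.7 and 90.7 TPM, with a log2 ratio of 1.28. Mrpl41 had 43.2 and 106.5 TPM, and its log2 ratio was also 1.28. From near the middle of the members or below it in M, these 3 genes reached ranks 32, 21 and 11 in MR. Mrpl38, whose product resembles phosphatidylethanolamine-binding proteins, had 25.1 TPM in M and 62.4 TPM in MR, a log2 ratio of 1.28. Mrpl17 had 33.1 and 78.2 TPM, a log2 ratio of 1.21 with an interval of 0.80 to 1.64. Just under the threshold lay Mrpl3 at 0.98 and Mrpl47 at 0.96, so that the count of 7 turns on small steps. Loci on the opposite strand lay over Mrpl47 with 120.0 TPM in M and 204.3 TPM in MR, above its own 21.1 and 42.0 TPM.

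The stalk of the large subunit, which recruits translation factors, includes the products of Mrpl10, Mrpl11 and Mrpl12. Mrpl10 had 36.2 TPM in M and 64.4 TPM in MR, a log2 ratio of 0.81. Mrpl11 had 45.7 and 73.1 TPM, a log2 ratio of 0.67. Both were higher in MR without reaching the threshold. Mrpl12 had 49.8 TPM in M, and in MR its reads fell inside a locus given to Hgs at 137.4 TPM, so that no ratio was taken.

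Other large subunit genes with a known task were higher by margins under the threshold. Mrpl45, whose product anchors the ribosome to the inner membrane, had 41.1 TPM in M and 67.5 TPM in MR, a log2 ratio of 0.70. Mrpl44, a protein with a ribonuclease III fold, had 36.8 and 59.5 TPM, a log2 ratio of 0.68. Mrpl58, a peptidyl-tRNA hydrolase built into the ribosome, had 52.8 and 61.0 TPM, a log2 ratio of 0.20 with an interval of -0.07 to 0.48 that includes 0. The most abundant large subunit gene in M was Mrpl30, the homologue of bacterial L30, with 129.7 TPM in M and 172.3 TPM in MR and a log2 ratio of 0.41.

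A minority of large subunit genes was lower in MR. Mrpl27, the homologue of bacterial L27, which reaches towards the catalytic centre, had 123.1 TPM in M and 89.8 TPM in MR, a log2 ratio of -0.45 with an interval of -0.66 to -0.25. Mrpl33 had 111.0 and 81.8 TPM, a log2 ratio of -0.44 with an interval of -0.70 to -0.16. Over Mrpl33 lay a locus on the opposite strand with 17.9 TPM in M and 16.4 TPM in MR. Mrpl27 and Mrpl33 stood at ranks 3 and 5 of 73 in M and at ranks 22 and 29 in MR. Mrpl39, whose product is related to threonyl-tRNA synthetase, had 37.0 TPM in M and 29.9 TPM in MR, a log2 ratio of -0.30. Its interval, from -0.57 to -0.02, lay below 0 as those of Mrpl27 and Mrpl33 did. In coverage the log2 ratios of Mrpl39 and Mrpl33 were -1.16 and -0.87.

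For 3 further genes the interval included 0. Mrpl49 had 40.7 TPM in M and 30.1 TPM in MR, a log2 ratio of -0.42, but its assembled locus held 621 exon bases in M and 1648 in MR, and a locus on the opposite strand lay over it in both libraries. Mrpl13 had 113.8 and 102.8 TPM, a log2 ratio of -0.15. Mrpl35 had 32.7 TPM in M and 32.6 TPM in MR, a log2 ratio of -0.01 with an interval of -0.30 to 0.28.

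**Figure D2:**
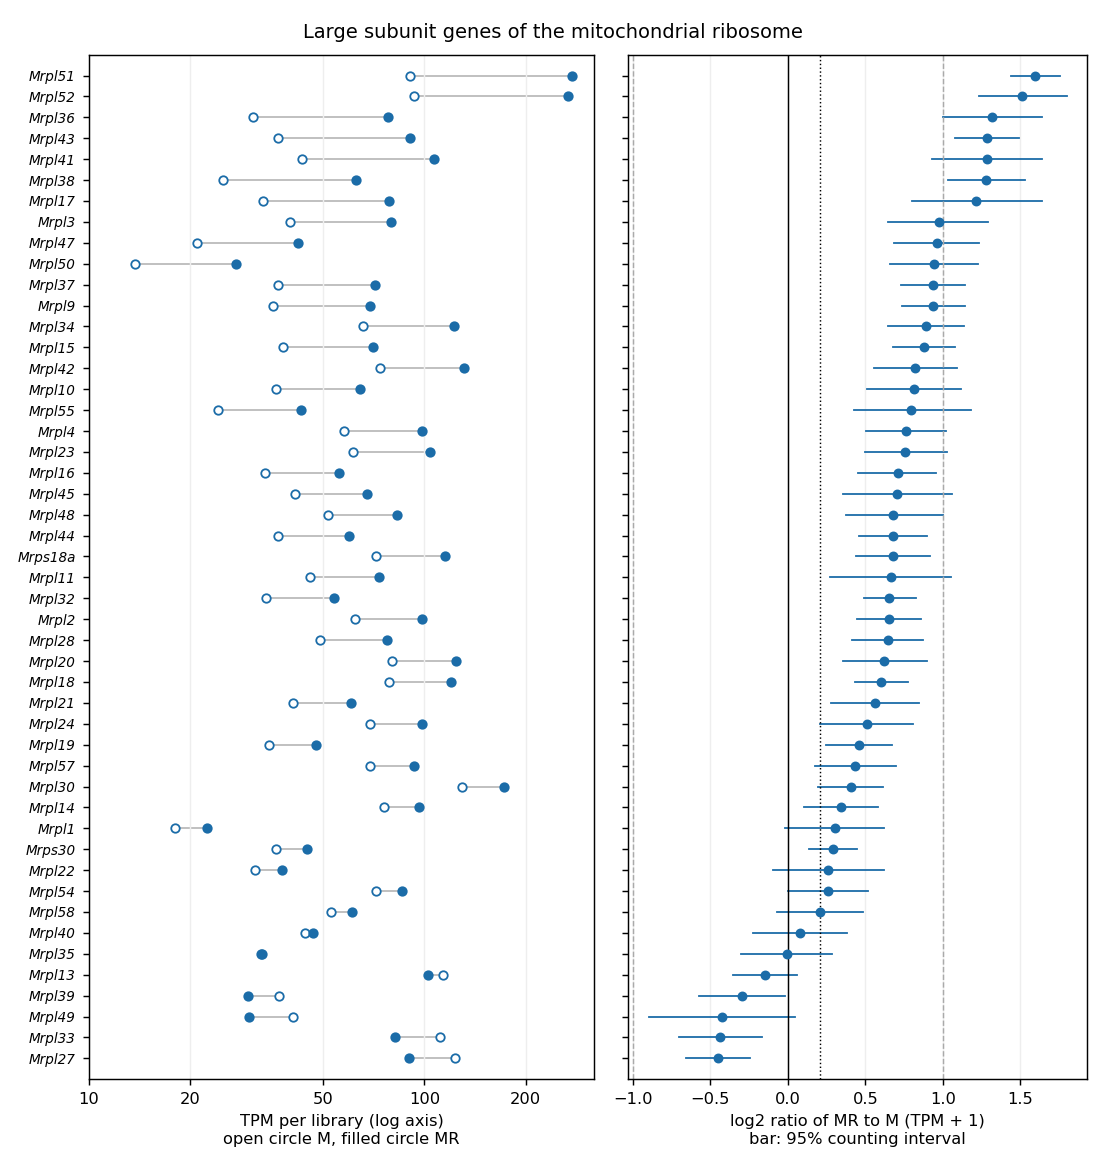
Left, TPM (log axis) of 48 large subunit genes in M (open circles) and MR (filled circles), ordered by log2 ratio. Right, log2 ratio of MR to M in TPM + 1 with 95% counting intervals (bars), lines at 0 and at ±1 (dashed) and the median of all genes, 0.21 (dotted). Mrpl51 and Mrpl52 stand apart at 1.59 and 1.51, most genes lie between 0 and 1, and Mrpl27 is lowest at -0.45. Mrpl40, at 0.08, lies below 0 under both other scalings.

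Small subunit genes were higher in MR for 22 of 24, with a median log2 ratio of 0.53 and a summed level of 954 TPM in M and 1516 TPM in MR. Of these, 7 rose past a log2 ratio of 1 (29.2%, against 21.2% of all genes) and 0 fell past -1, against 13.3%. The share past 1 was 20.8% (5 of 24) under median-of-ratios scaling, against 18.2% of all genes, nearer to the background. The 7 above 1 in TPM were Mrps35, Mrps2, Mrps34, Mrps28, Mrps26, Mrps9 and Mrps25. They had between 9.87 and 38.7 TPM in M, where the median small subunit gene had 36.6 TPM, and the difference between the subunits was not tested.

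Mrps35 (ENSMUSG00000040112.9, chr6:147042764-147073991), a protein specific to mitochondria, had 18.1 TPM in M and 91.4 TPM in MR, a log2 ratio of 2.28 with an interval of 1.72 to 2.80, and moved from rank 69 to rank 20. The interval is wide because the shortest coding transcript puts only 33.5 read pairs on it in M. Mrps2 (ENSMUSG00000035772.11, chr2:28468066-28471178), the homologue of bacterial S2, was the lowest member in M at 9.87 TPM and had 37.1 TPM in MR, a log2 ratio of 1.81 whose interval reaches up to 2.11. Loci on the opposite strand lay over Mrps2 with 15.4 TPM in M and 33.8 TPM in MR, and reads of the strands cannot be told apart where a library does not mark strand. In listed coverage, the log2 ratio was 1.46 for Mrps35 and 0.94 for Mrps2, smaller than in TPM for both.

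Mrps34 (ENSMUSG00000038880.13, chr17:24895116-24897502), a mitochondria-specific protein, had 36.1 TPM in M and 115.2 TPM in MR, a log2 ratio of 1.65, but part of the value in MR comes from a locus that also holds the neighbouring gene Nme3. Without Mrps34, 13 genes in all lay past a log2 ratio of 1 and the members' median was 0.65. Mrps28, the counterpart of bacterial S1, had 18.4 and 54.1 TPM, a log2 ratio of 1.51 with an interval of 1.09 to 1.94. Mrps26, whose promoter is printed above, had 31.8 TPM in M and 84.8 TPM in MR, a log2 ratio of 1.39.

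Mrps9, the homologue of bacterial S9, had 26.7 TPM in M and 60.3 TPM in MR, a log2 ratio of 1.15. Mrps25, a protein of the mitochondrial small subunit without a bacterial counterpart, had 38.7 and 83.9 TPM, a log2 ratio of 1.10. Both had intervals that reach under 1, and under median-of-ratios scaling both lay below that threshold, which left 12 members above it.

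The remaining small subunit genes were nearer to 0. Mrps12, which helps to form the decoding site, had 44.4 TPM in M and 51.6 TPM in MR, a log2 ratio of 0.21 with an interval of -0.17 to 0.60. Mrps21, the homologue of bacterial S21, was the most abundant member in M at 141.1 TPM and had 160.2 TPM in MR, a log2 ratio of 0.18. With an interval of -0.11 to 0.48, its difference was not detectable at this depth. Mrps15 had 76.7 TPM in M and 72.3 TPM in MR, a log2 ratio of -0.08.

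Mrps17 (ENSMUSG00000034211.14, chr5:129715497-129722556), the homologue of bacterial S17, was the member with the lowest log2 ratio. It had 40.5 TPM in M and 21.4 TPM in MR, a log2 ratio of -0.89 whose interval ends at -0.26 on the upper side, and passed from rank 36 to the last of 73. The estimate rests on 69.2 read pairs in M and 28.8 in MR, and its locus held 2412 exon bases in M and 4365 in MR. Under median-of-ratios scaling it was the 1 member below -1.

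**Figure D3:**
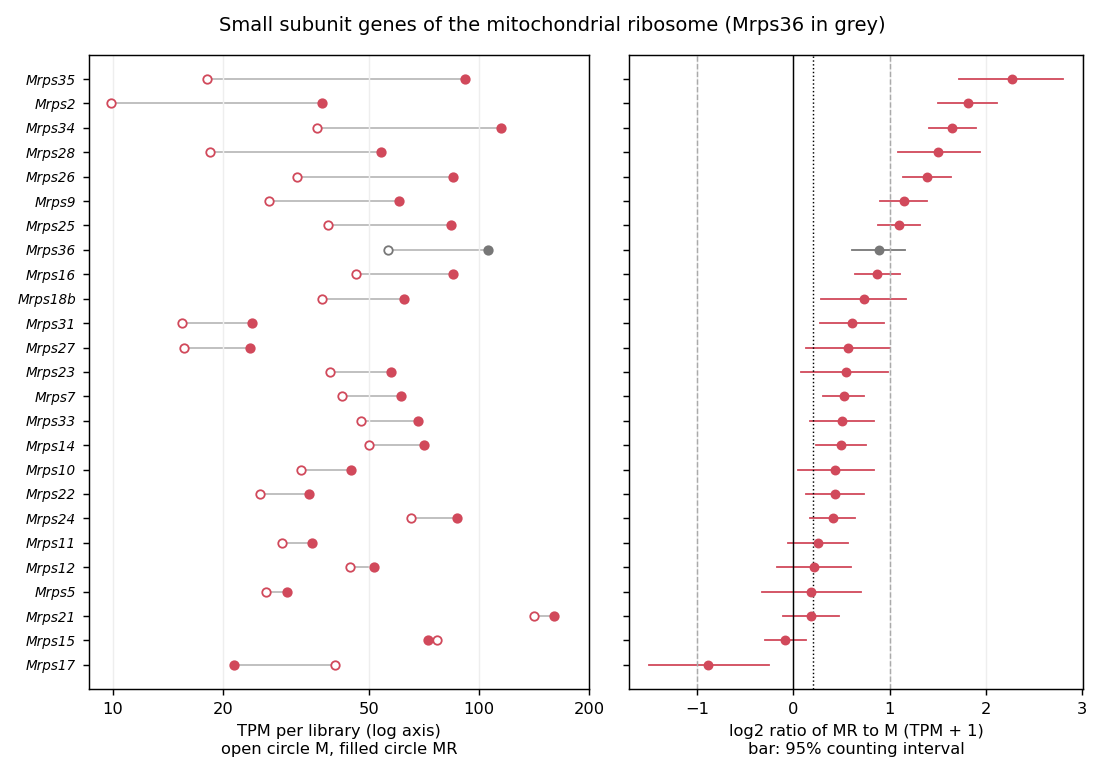
Left, TPM (log axis) of 24 small subunit genes and of Mrps36 (grey) in M (open circles) and MR (filled circles), ordered by log2 ratio. Right, log2 ratio of MR to M in TPM + 1 with 95% counting intervals (bars), lines at 0 and at ±1 (dashed) and the median of all genes, 0.21 (dotted). Mrps35 is highest at 2.28 and moves from 18.1 to 91.4 TPM, whereas Mrps17 is lowest at -0.89 and moves from 40.5 to 21.4 TPM.

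The family of 3 paralogues related to bacterial S18 is split between the subunits. Mrps18a, in the large subunit, had 71.7 TPM in M and 115.3 TPM in MR, a log2 ratio of 0.68. Mrps18b, in the small subunit, had 37.1 and 62.4 TPM, a log2 ratio of 0.73 with an interval of 0.29 to 1.17. The measured paralogues thus had ratios close to the members' median, at different levels. Mrps18c lay inside a locus given to Gm43511, which had 110.7 TPM in M and 110.5 TPM in MR and cannot be divided between them. Mrps36, of the 2-oxoglutarate dehydrogenase complex, had 56.5 and 105.6 TPM, a log2 ratio of 0.89.

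For the other genes without a value, only the locus that covers them could be read. That over Mrpl46, given to Gm45059, had 29.6 TPM in M and 49.4 TPM in MR. That over Mrpl53, given to Gm42688, had 10.8 and 17.5 TPM. Mrps6 lay inside the locus of Slc5a3, which had 12.6 TPM in M and 87.0 TPM in MR, and how much of this belongs to Mrps6 is unknown. The 5 annotated pseudogenes with an Mrpl or Mrps symbol summed to 0 TPM in M and 5.97 TPM in MR, and reads shared with them or between paralogues cannot be divided here.

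Origin follows the systematic names of mitoribosomal proteins, which mark a protein as having a bacterial homologue or as specific to mitochondria. Mrps18a and Mrps18b, although related to bacterial S18, carry the mitochondrial mark and are counted there, and Mrps18c carries that of S18. By origin, the genes for mitochondria-specific proteins and those for homologues of bacterial proteins had similar medians and unequal upper ends. Of 29 mitochondria-specific genes, 27 were higher and 9 (31.0%, against 21.2% of all genes) rose past a log2 ratio of 1, with a median of 0.68. Of 43 bacterial homologues, 37 were higher and 5 (11.6%) rose past 1, with a median of 0.60. Summed levels were 1270 TPM in M and 2395 TPM in MR for the first group, a ratio of 1.88. They were 2255 and 3165 TPM for the second, a ratio of 1.40.

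Within the subunits, the 10 mitochondria-specific small subunit genes were higher for 10 of 10, with a median of 0.67, and the 14 small subunit homologues of bacterial proteins for 12 of 14, with a median of 0.42. In the large subunit the corresponding medians were 0.68 over 19 genes and 0.65 over 29 genes. These differences between classes are descriptions of these libraries, with no test. Under median-of-ratios scaling the count past 1 was 8 of the mitochondria-specific genes (27.6%) and 4 of the bacterial homologues (9.30%), against 18.2% of all genes.

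**Figure D4:**
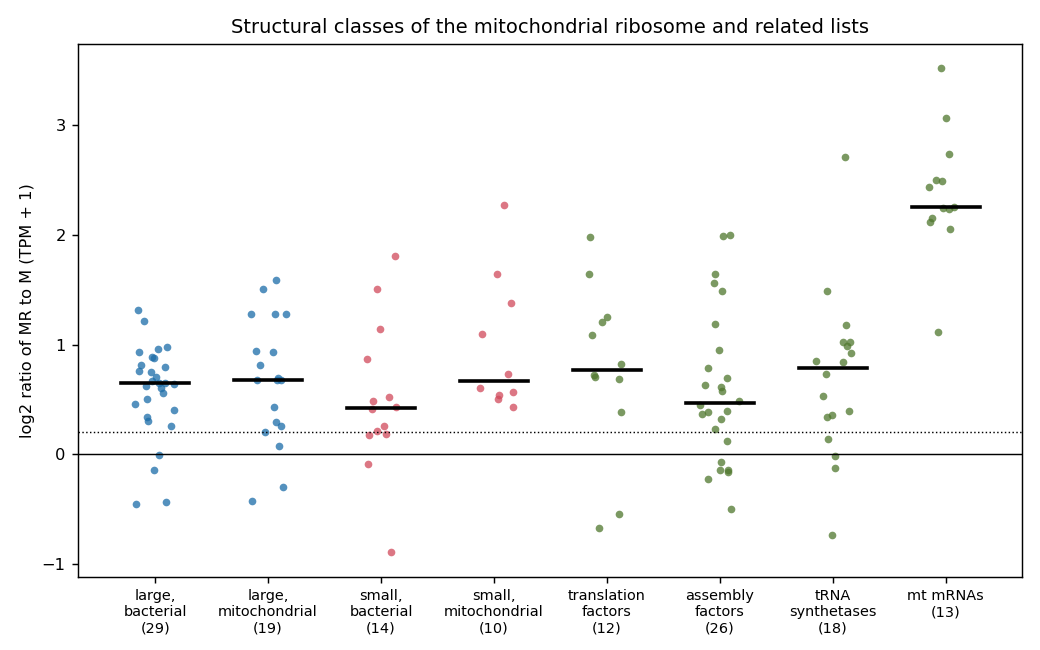
Log2 ratio of MR to M in TPM + 1 for the structural classes of mitoribosomal genes (blue large subunit, red small subunit) and, in green, for translation factors, assembly factors, tRNA synthetases and mRNAs of mitochondrial DNA, with 1 point per gene, the number of genes in brackets, bars at the medians and a dotted line at 0.21, the median of all genes. The 4 mitoribosomal classes have medians between 0.42 and 0.68, whereas the 13 mitochondrial mRNAs lie between 1.11 and 3.52 with a median of 2.26.

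The mitoribosomal proteins without an Mrpl or Mrps symbol were higher for 5 of 5 genes, 1 of them past 1 (20%, against 21.2% of all genes), with a median of 0.73. Ptcd3, of the small subunit, had 12.8 TPM in M and 30.8 TPM in MR, a log2 ratio of 1.21. Dap3, also of the small subunit, had 31.6 and 54.8 TPM, a log2 ratio of 0.78. Gadd45gip1, of the large subunit, had 43.0 and 72.2 TPM, a log2 ratio of 0.73. The smallest ratios of the list were those of Chchd1 and Aurkaip1, at 0.47 and 0.25.

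Among translation factors, 10 of the 12 measured of 13 listed were higher and 5 (41.7%, against 21.2% of all genes) rose past 1, with a median of 0.77, while Mtrf1 lay inside another locus. Gfm1, elongation factor G of mitochondria, had 21.8 TPM in M and 89.1 TPM in MR, a log2 ratio of 1.98. Tufm, elongation factor Tu, had 51.0 and 161.1 TPM, a log2 ratio of 1.64. Taco1, an activator of Cox1 translation, followed at 1.25. The smallest ratios were those of Mtfmt, which formylates the initiator tRNA, at -0.67, of Mtif2, initiation factor 2, at -0.55, and of the recycling factor Mrrf at 0.38.

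Factors that assemble or modify the mitoribosome were higher for 20 of the 26 measured of 27 listed and rose past 1 for 6 (23.1%, against 21.2% of all genes, about the background), with a median of 0.47, and Mtg2 turned below 0 under median-of-ratios scaling. Mettl15, a methyltransferase of small subunit RNA, was low, with 1.97 TPM in M and 10.9 TPM in MR, and had the largest log2 ratio of the list. Noa1, a GTPase, had 7.07 and 31.1 TPM, a log2 ratio of 1.99. C1qbp had 59.6 and 188.9 TPM, a log2 ratio of 1.65. The smallest ratios were -0.49 for the pseudouridine synthase Trub2, -0.22 for Ybey and -0.16 for Eral1, which binds small subunit RNA. For Ddx28 no locus was assembled in either library.

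Genes that charge mitochondrial tRNAs were higher for 15 of the 18 measured of 20 listed and rose past 1 for 5 (27.8%, against 21.2% of all genes), with a median of 0.79. Under median-of-ratios scaling Cars2 turned below 0 and 3 of 18 (16.7%) lay past 1, against 18.2% of all genes. No Wars2 locus was assembled in M, and it had 5.55 TPM in MR. Yars2 had 6.54 TPM in M and 16.1 TPM in MR, a log2 ratio of 1.18. Lars2 had the highest level of the list, 930.6 TPM in M and 856.8 TPM in MR, a log2 ratio of -0.12. The list's median level was 8.49 TPM in M and 17.6 TPM in MR, far below it. Whether all reads at the Lars2 locus come from its mRNA was not tested. Gatc and Pars2 were at -0.73 and -0.02, Fars2 lay inside another locus and Mars2 had none.

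Of 6 genes for mitochondrial transcription and mRNA stability, 5 were higher and 2 rose past 1 (33.3%, against 21.2% of all genes). Lrpprc had 20.8 TPM in M and 63.7 TPM in MR, a log2 ratio of 1.57, whereas Slirp, its partner in stabilizing mitochondrial mRNA, had 201.7 and 140.8 TPM, a log2 ratio of -0.52. The polymerase Polrmt was at 1.03, Tfb2m at 0.99, Tfam at 0.80 and Tefm at 0.48. Under median-of-ratios scaling 1 of the 6 (16.7%) lay past 1, against 18.2% of all genes.

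The templates of the mitoribosome stood much further apart between the cultures than its proteins. The 13 mRNAs of mitochondrial DNA were higher for 13 of 13, against 59.5% of all genes. All lay past a log2 ratio of 1, against 21.2% of all genes, and 12 of 13 did under median-of-ratios scaling, against 18.2%. Their median was 2.26 and their summed level 11148 TPM in M and 46157 TPM in MR. Their sum was 3.11 times that of the mitoribosomal genes in M and 8.15 times in MR. Genes of respiratory complex I, which receives many of these products, were higher for 36 of 36 measured of 38, against the same 59.5%. Their median was 1.05, with Ndufa2 turning below 0 under both other scalings. Genes for proteins of the cytosolic ribosome were higher for 77 of 80, against the same 59.5%. Their median was 0.86, with Rpl31 turning below 0 under median-of-ratios scaling. They summed to 15.6 times the mitoribosomal genes in M and to 17.9 times in MR. None of these differences between families was tested.

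The depth behind the members was moderate. Estimated read pairs per gene ran from 33.5 to 674 in M, with a median of 193, and from 28.8 to 1085 in MR, with a median of 246. The counting interval lay above 0 for 56 of 73 genes, below 0 for 4 and included 0 for 13, and its median width to either side was 0.27. The same shares over all genes were not computed, so these counts describe depth and are no result about the members. Assembled loci held exon bases within 10% of each other in the libraries for 61 of 73 genes. For 12 of the 73, a locus on the opposite strand overlapped the gene in at least 1 library.

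Listed coverage, a read depth per base, gave another reading of the same libraries and had the same sign as TPM for 70 of 73 genes. Mrps10, Mrps12 and Mrps14 were the exceptions, with coverage ratios of -1.44, -0.12 and -0.58 against 0.44, 0.21 and 0.49 in TPM. Mrpl14 and Mrpl48 stood far off in the other direction, at 3.65 and 3.47 in coverage and 0.34 and 0.68 in TPM. For 9 of 73 genes, these 2 and Mrps10, Mrps14, Mrps2, Mrpl15, Mrpl24, Mrpl27 and Mrpl41, the listed coverage was less than 50% of the depth that FPKM implies in at least 1 library. The 8 genes that were lower in TPM were lower in every unit and scaling tried, and 11 genes, without Mrps2, Mrps9 and Mrps25, lay above 1 in every one. Before the pseudocount of 1 is added, FPKM and both other scalings shift the ratio of MR to M down for every gene. The added 1 does not change the sign of a log2 ratio. Of these readings, only coverage could therefore have turned the 8 genes upwards.

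**Figure D5:**
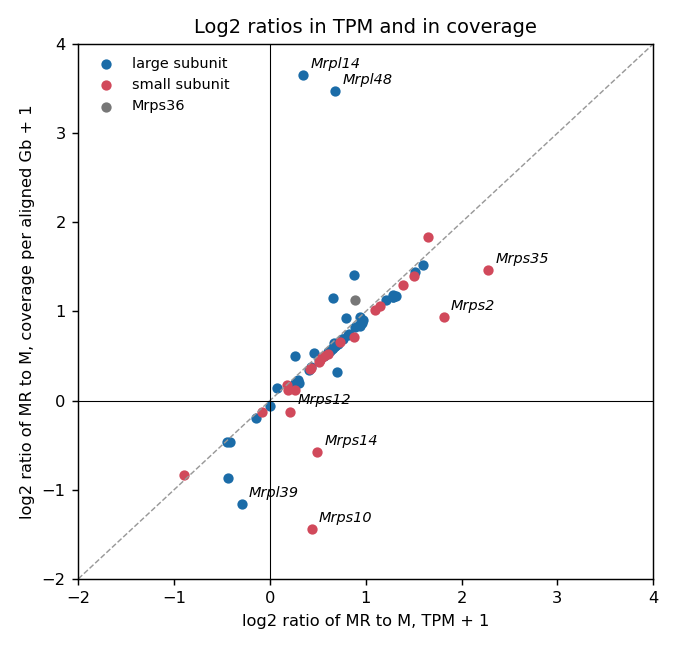
Log2 ratio of MR to M in coverage per aligned Gb + 1 (y axis) against that in TPM + 1 (x axis) for 48 large subunit genes (blue), 24 small subunit genes (red) and Mrps36 (grey), with the line of equal values dashed. Most genes follow the line, while Mrpl14 and Mrpl48 lie far above it at 3.65 and 3.47 and Mrps10, Mrps12 and Mrps14 lie below 0 in coverage and above 0 in TPM.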

How the data were processed

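Total RNA of 2 cultures was sequenced as paired reads of 150 bases, 1 library per condition. Adaptor trimming with Trim Galore, alignment to GRCm38 (mm10) with HISAT2 and quantification by StringTie with GENCODE vM27 were done by the authors, and the submitters' processing notes also name FastQC and SAMtools. Versions, strandedness and the handling of reads with several alignments are not given in the sources used here. The deposited tables hold coverage, a signal not scaled for depth, and the FPKM and TPM that the authors calculated per entry. The deposited TPM of assembled loci sums to 1000000 per library. Entries with gene names carry GRCm39 positions and were not used.

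Loci were assigned by exon overlap with vM21. The gene on the same strand that placed most exon bases in a locus received it if these were at least 50. If a locus also held at least 50% of the exon bases of a further protein-coding gene, the gene that received the locus was called shared. A further gene that received no locus itself in that library was left without a value there. In this way 15665 loci of M (95.4% of its TPM) and 16523 of MR (96.9%) were given to genes. TPM was summed per gene, log2 ratios used a pseudocount of 1 and a minimum of 1 TPM in at least 1 library, and with 1 library per condition no test was run. Aligned bases were read from the modal coverage per FPKM of loci above 5 FPKM, a value that 34.1% of them had in M and 36.8% in MR. Counting intervals (95%, Wilson, on the read pairs of MR among those of both libraries, 300 bases a pair) cover counting error only. The assignment was tested on simulated loci that each followed a single annotated transcript with slightly moved ends. Merged and opposite-strand loci were not simulated, so the test does not bear on them. The software was Python 3.11.15 with the packages scipy 1.17.1, matplotlib 3.10.9, pandas 2.3.3 and numpy 2.4.6.

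Named genes are the 8 largest and 8 smallest log2 ratios among genes that had their own locus and at least 10 TPM in 1 library, the 5 most abundant, all past a log2 ratio of 1 or below 0, a set chosen by role, genes without a value, and the 3 largest and 3 smallest of each list, of which 1 gene is not reported here. Mrpl3, Mrpl47, Mrpl40, Mrpl14, Mrpl48, Mrpl15, Mrpl24, Mrps10, Mrps14, Mtg2, Cars2, Ndufa2 and Rpl31 were named after their values were seen. The members and lists were chosen with earlier results of these data known. The alternatives are another pseudocount, filters, FPKM, coverage, other scalings, other locus assignments and a 1.5-fold threshold. Protein sequences, and the Mrps35 promoter, were not used here.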

Additional observations from a re-analysis of the deposited data

How the results depend on the processing

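With 1 library per condition, no library could be left out, and no paired analysis was possible because neither condition has a second sample. Of 470 alternative values, 456 stayed within the counting or order-statistic interval of the value they replace, or within 1.5 times the count, 14 moved and 0 turned in sign among summaries and called genes. Much of this count was fixed in advance. All 73 members with a value reached 10 TPM in at least 1 library, so the filters on low values changed no single gene. Settings that only leave genes out cannot change the genes they keep. The count is therefore no measure of how firm the results are. The log2 ratio of the summed TPM, 0.66, was 0.60 in FPKM, 0.48 under median-of-ratios scaling, 0.56 when the 20 most abundant genes and all mitochondrial ones were left out of the total, and 0.71 without the genes that an opposite-strand locus overlaps, a choice made after the data were seen. Median-of-ratios scaling, which lowers all log2 ratios by 0.18 before the pseudocount is added, also moved the median of all members to 0.47. That of the large subunit moved to 0.49 and that of the small subunit to 0.35. Genes past the threshold numbered 42 at 1.5-fold, 41 higher and 1 lower, against 14 at a log2 ratio of 1. Of single genes, only those named by the rule were followed. Among these, Mrpl51 moved to 1.41 under median-of-ratios scaling, and in coverage Mrpl33 moved to -0.87, Mrpl39 to -1.16, Mrpl45 to 0.32, Mrps2 to 0.94 and Mrps35 to 1.46. Mrps12, followed but not called, turned from 0.21 to -0.12 in coverage and counts as unmoved because its interval reaches -0.17. Left out of the count are Mrpl14, Mrpl48, Mrps10 and Mrps14, which differ most between TPM and coverage. In coverage they were at 3.65, 3.47, -1.44 and -0.58, and Mrps10 and Mrps14 turned in sign. The cause of these moves in coverage was not tested. Giving loci to protein-coding genes alone, keeping genes whose loci hold similar exon bases and leaving out Mrps34 were also added after the data were seen. Counting intervals of single members reach 0.27 to either side in the median and 0.62 at most, and no value here bears on the spread between cultures.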
